A study of Mus musculus with 4 samples.

Results

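The longest unbroken stretches of histone H3 lysine 27 acetylation (H3K27ac) were examined in primary mouse chondrocytes with and without Hdac3. They are the single peaks at least 600 bp wide, taken as every row of the 2 deposited peak lists whose end minus start reached 600 bp. The Cre list gave 430 such peaks of 13130 (3.27%) and the GFP list gave 452 of 12873 (3.51%), 882 of 26003 rows in all. They were chosen by their measured width alone, so their widths are a description and support nothing. Both libraries came from C57Bl/6 chondrocytes cultured as micromasses, dense drops of cells that lay down cartilage matrix. The Cre culture carried a Cre-recombinase adenovirus and is labelled hdac3-knockout, and the GFP culture carried a GFP control adenovirus and is labelled wild-type. The sources used here do not give the targeted allele, the age of the mice, any pooling of animals or the share of cells transduced. There was 1 H3K27ac library per culture and so no replicate, and no difference between the lists could be tested. The input libraries of both cultures were not analysed here. In bulk chromatin, fewer acetylated cells and less acetylation per cell cannot be told apart.

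H3K27ac sits on nucleosomes beside active promoters and enhancers. HDAC3 takes acetyl groups off histones as the enzyme of the NCoR and SMRT corepressor complexes. Long runs of this mark are known from genes that define a cell type, which in chondrocytes include the SOX trio, Trps1 and the genes of the cartilage matrix. A peak caller ends a peak where the signal falls under its threshold over more than a set gap. In both lists neighbouring peaks were never closer than 52 bp and the narrowest peak had 147 bp (Cre) or 144 bp (GFP). A wide peak is therefore a run of signal with no longer dip, and a slightly longer dip splits the same run into several peaks.

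Several wide peaks lay on or within 10 kb of microRNA hairpins, and mature sequences of some of these microRNAs are given below. Of 1005 hairpins in the RefSeq table (GRCm38.p6), 207 had any peak within 10 kb and 24 of those (11.6%) had a wide one, 10 in both lists, 8 in the Cre list alone and 6 in the GFP list alone. Clustered hairpins can share a wide peak, as Mir23a, Mir27a, Mir24-2 and Mir3074-2 of the Cre list alone do. These are therefore counts of hairpins and not of separate peaks. The 10 kb window was chosen after the values were seen. Capitals mark the seed, bases 2 to 8. The 2 miR-196 sequences share their seed, while the others differ from each other.
miR-199a-5p: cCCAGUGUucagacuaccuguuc
miR-199a-3p: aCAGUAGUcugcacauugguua
miR-214-3p: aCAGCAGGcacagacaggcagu
let-7i-5p: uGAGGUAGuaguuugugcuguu
miR-140-3p: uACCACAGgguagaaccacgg
miR-125b-5p: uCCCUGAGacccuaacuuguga
miR-22-3p: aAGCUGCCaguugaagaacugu
miR-196a-5p: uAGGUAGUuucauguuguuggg
miR-196b-5p: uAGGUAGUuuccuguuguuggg

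The Mir199a-2 hairpin (chr1:162217814-162217923, plus strand) lay inside a GFP peak of 2737 bp, and the nearest wide Cre peak, of 818 bp, began 39 bp from it. Mir125b-1 (chr9:41581926-41582002) lay inside a Cre peak of 753 bp and 140 bp from a GFP peak of 1038 bp. Mir140, the microRNA best known for its part in cartilage growth, lies in an intron of Wwp2. Its hairpin (chr8:107551244-107551313) was 27 bp from a Cre peak of 743 bp and 1833 bp from the nearest wide GFP peak, of 2332 bp. Mirlet7i (chr10:122985640-122985724) was 108 bp from a Cre peak of 2238 bp and 329 bp from a GFP peak of 1183 bp. Mir22 was about 3 kb from wide peaks of 1446 bp (Cre, at 3147 bp) and 694 bp (GFP, at 3174 bp). Mir214 was 4589 bp from the wide Cre peak and 2924 bp from the wide GFP peak named for Mir199a-2. Mir196b was 606 bp (Cre) and 307 bp (GFP) from the nearest wide peak, and Mir196a-2 was 4425 bp (Cre) and 8277 bp (GFP) from it. Mir23a, Mir27a and Mir24-2, a single cluster, had a wide peak only in the Cre list, 713 bp long and 5050 to 5347 bp away.

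Few peaks of any width covered a listed gene start. A listed protein-coding start lay inside 6 wide Cre (1.40%) and 10 wide GFP peaks (2.21%), which gave 17 promoters of 15 genes. Over all peaks the shares were 0.960% and 1.01%. Some genes have no listed start and could not be counted. No gene with a listed start there was among those of the widest or most divided peaks. The 4 promoters below were chosen after their values were seen, to show the start that was wide in both lists (Cflar, an inhibitor of caspase-8), 2 matrix genes wide in the GFP list (Ogn and Fmod) and a chromatin reader wide in the Cre list (Brd2). Each is 300 bases of RefSeq GRCm38.p6, from 250 before to 50 after the start, on the gene's strand. Capitals mark matches to TATAAA (the TATA box), to CCAAT, to GGGCGG (the GC box) and to TGACTCA (the AP-1 site), each searched on both strands. In Cflar and Ogn the capitals are TATAAA and its reverse complement overlapping.
Cflar promoter, chr1:58711241-58711540, plus strand: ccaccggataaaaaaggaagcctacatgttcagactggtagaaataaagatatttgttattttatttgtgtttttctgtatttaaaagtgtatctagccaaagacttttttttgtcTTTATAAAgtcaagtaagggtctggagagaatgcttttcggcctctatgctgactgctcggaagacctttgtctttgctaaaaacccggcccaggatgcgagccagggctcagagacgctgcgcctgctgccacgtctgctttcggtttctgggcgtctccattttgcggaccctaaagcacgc
Ogn promoter, chr13:49607765-49608064, plus strand: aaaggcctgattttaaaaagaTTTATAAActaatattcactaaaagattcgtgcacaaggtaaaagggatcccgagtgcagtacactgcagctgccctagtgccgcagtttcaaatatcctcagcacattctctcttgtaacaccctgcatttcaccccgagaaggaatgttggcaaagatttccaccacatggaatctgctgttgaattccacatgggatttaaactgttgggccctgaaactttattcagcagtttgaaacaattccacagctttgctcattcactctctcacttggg
Fmod promoter, chr1:134037004-134037303, plus strand: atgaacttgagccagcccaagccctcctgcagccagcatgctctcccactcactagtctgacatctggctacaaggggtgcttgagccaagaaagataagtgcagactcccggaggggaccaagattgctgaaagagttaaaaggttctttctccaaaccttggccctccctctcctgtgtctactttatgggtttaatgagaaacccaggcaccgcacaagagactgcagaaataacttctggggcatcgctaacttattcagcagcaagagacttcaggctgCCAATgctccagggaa
Brd2 promoter, chr17:34121698-34121997, minus strand: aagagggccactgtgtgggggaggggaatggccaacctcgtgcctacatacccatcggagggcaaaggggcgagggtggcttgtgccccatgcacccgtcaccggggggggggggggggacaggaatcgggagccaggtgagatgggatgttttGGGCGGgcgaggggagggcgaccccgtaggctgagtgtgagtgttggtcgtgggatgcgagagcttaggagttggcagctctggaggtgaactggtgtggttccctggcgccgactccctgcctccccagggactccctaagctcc

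The Cflar start lay in a Cre peak of 1108 bp (chr1:58710599-58711706) and a GFP peak of 1021 bp, with 21 and 20 fragments at the summit. The Ogn start lay in a GFP peak of 983 bp with 28 fragments, over which the Cre list had 1 peak of 534 bp with 13. Over the 17 promoters, GGGCGG or its complement was found in 2 (11.8%, exact Clopper-Pearson 95% interval 1.46 to 36.4), against 42.8% of 187 promoters whose start lay in a narrower peak and 46.2% of all 21263 in the table. TATAAA was in 3 (17.6%, against 11.8% and 12.6%) and CCAAT in 8 (47.1%, against 33.2% and 38.2%). The TGACTCA motif was in 0 of 17, which allows up to 19.5%, against 8.02% and 4.66%. Median GC content was 49.7%, against 54.0% and 56.3%. These are letter matches in short windows, and 17 promoters leave wide intervals. Dhrs3 gave several of the windows, which overlap in part, so the same CCAAT match was counted more than once. The intervals treat these windows as independent.

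Wide peaks took a larger share of the acetylated sequence than of the peaks, 11.1% of the 3264813 bp under Cre peaks and 11.8% of the 3236648 bp under GFP peaks. Their median width was 743.5 bp (Cre) and 726.5 bp (GFP), and the widest reached 3691 and 4043 bp. Many stayed near the limit: 168 Cre and 198 GFP peaks were under 700 bp, while 15 and 20 reached 1500 bp. A further 308 and 336 peaks lay outside the limit by up to 100 bp. The 3 narrowest Cre peaks inside were in Xbp1 (600 bp), Ell2 (600 bp) and Pde4b (602 bp), and the 3 widest outside were in Mpp5, in Synpo and at the edge of Tep1, all a single base too short. In the GFP list the last inside were near Gm41352 (600 bp) and Ucma (600 bp) and in 9430053O09Rik (602 bp). Those just outside were in Matn3, Tnrc6b and Abcc1, also a single base short.

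Wide peaks were taller than narrower ones in general, but few of the tallest peaks were wide. The summit pileup, the number of overlapping fragments at the highest base as solved from the authors' fold and p-value, had a median of 17 at wide peaks of both lists, against 12 at narrower peaks of both, and ran from 10 to 36 in wide Cre peaks and from 10 to 49 in wide GFP peaks. None of the 1840 Cre and 2120 GFP peaks with 7 to 9 fragments was wide. The share of wide peaks was 1.21% (Cre) and 1.15% (GFP) at 10 to 14 fragments and 19.1% and 22.2% at 20 to 29. At 30 or more it was lower, 9 of 110 (8.18%) and 15 of 121 (12.4%), so most of the tallest peaks were narrow. The authors' caller also raised its expected pileup above 2 times the genome background at more wide peaks (13.0% of Cre and 5.75% of GFP peaks) than at narrower ones (5.09% and 2.26%), which lowers their fold. The background itself was 1.01 (Cre) and 0.949 (GFP) fragments.

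The widest peaks of both lists were in Trps1, a GATA-family repressor that acts in chondrocyte maturation. The Cre peak (chr15:50885399-50889089) had 3691 bp and 31 fragments and the GFP peak (chr15:50884453-50888495) had 4043 bp and 39. A second stretch of Trps1 just beside it held a Cre peak of 2542 bp, which the GFP list gave as 3 peaks of 715, 181 and 1520 bp. Trps1 held 5 wide peaks in each list.

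Other regulators of chondrocytes followed. Sox5, a SOX-family partner of Sox9, held 7 wide peaks in the Cre and 3 in the GFP list. Hif1a, which lets chondrocytes live with little oxygen, held 3 wide Cre and 2 wide GFP peaks. Its longest peak had nearly the same extent in both lists, 1569 bp for Cre (chr12:73908749-73910317) and 1731 bp for GFP, with 28 fragments each. At a second stretch of Hif1a the lists were unlike, with a Cre peak of 1313 bp over a GFP peak of 196 bp. Foxc1, a forkhead factor of skeletal development, had a GFP peak of 2169 bp over which the Cre list had 4 peaks of 999, 250, 156 and 538 bp. Wwp2, the ubiquitin ligase gene that hosts Mir140 and is a target of Sox9, held the most wide peaks of any gene, 11 in the Cre and 9 in the GFP list, out of 91 and 94 peaks.

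Genes of the matrix also held some of the longest. Dcn, encoding the small proteoglycan decorin, had a GFP peak of 2352 bp with 22 fragments over Cre peaks of 457, 226 and 1826 bp, the longest with 30. This longest Cre peak had an expected pileup of 5.46, against 1.86 for the GFP peak, and a lower fold (4.80 against 8.03). The GFP summit and the whole Cre peak of 1826 bp were inside the gene. The GFP peak (chr10:97479315-97481666) crossed the annotated edge of the gene at base 97479500. At Lum, encoding lumican, the Cre list had 1 peak of 1734 bp (chr10:97566053-97567786) and the GFP list had 4, of 646, 580, 223 and 367 bp. In Cnmd, encoding the cartilage protein chondromodulin, each list split a stretch of 2281 bp at a different base, into 692 and 1280 bp (Cre) and 1454 and 663 bp (GFP). Cenpp, a centromere protein gene that spans Omd, Ogn and Aspn, a cluster of small leucine-rich proteoglycan genes, held 3 wide Cre and 6 wide GFP peaks.

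Some of the longest lay in or near non-coding genes or far from any gene. Mir99ahg, a microRNA host gene, held 2 such stretches. At the one near its start, the Cre list had 1 peak of 2730 bp and the GFP list 4, of 434, 839, 351 and 499 bp. In the one inside the gene the lists traded places, with 1 GFP peak of 2854 bp over Cre peaks of 827, 1297 and 553 bp. An intergenic stretch on chromosome 15, 26408 bp from the nearest annotated gene, D130051D11Rik, had a GFP peak of 3501 bp with 37 fragments and 4 Cre peaks of 816, 500, 2072 and 519 bp. Another, further along chromosome 15 and 30495 bp from Lncppara, had a GFP peak of 2324 bp and Cre peaks of 1271, 157 and 542 bp.

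**Figure D1:**
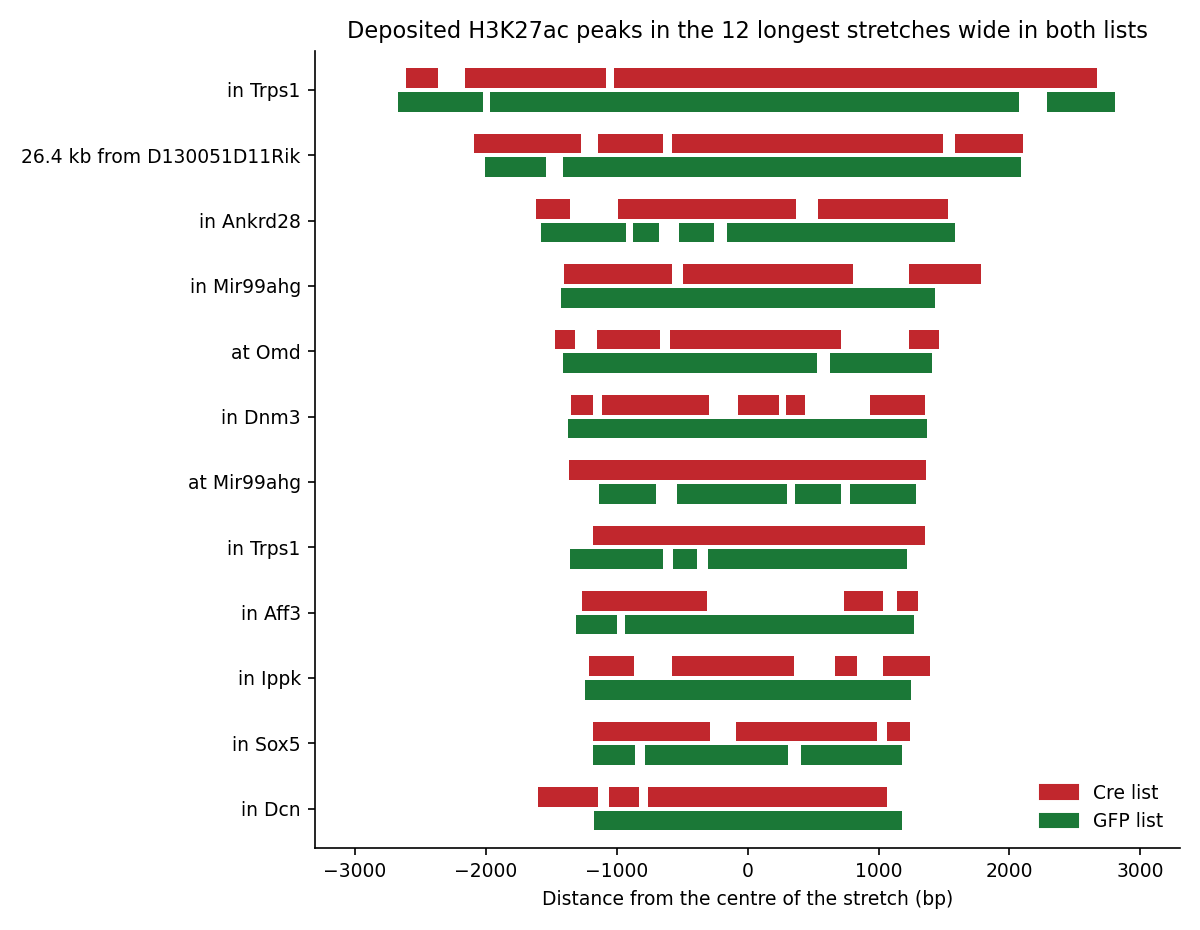
Deposited peaks of the Cre list (upper bar of each pair) and the GFP list (lower bar) in the 12 longest stretches with a wide peak in both lists, drawn to scale by distance from the centre of each stretch in bp. In the longest stretch, in Trps1, each list has 1 very long peak (3691 and 4043 bp) and 2 shorter ones, of which 1 is itself wide (1081 and 646 bp), while in Dnm3 1 GFP peak of 2737 bp lies over 5 Cre peaks and at the start of Mir99ahg 1 Cre peak of 2730 bp lies over 4 GFP peaks.

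Most wide peaks lay inside genes, as most peaks of either list did, and they were less often at a gene boundary. A summit within 1 kb of either annotated end of a protein-coding gene was found for 74 of 430 Cre peaks (17.2%, 13.8 to 21.1) and 97 of 452 GFP peaks (21.5%, 17.8 to 25.5), against 25.5% and 26.8% of all peaks in each list. Gene interiors held 251 (58.4%, 53.6 to 63.1) and 241 (53.3%, 48.6 to 58.0), against 52.8% and 53.95% of all peaks, so the GFP share was at the level of the whole list. Intergenic sequence held 105 (24.4%) and 114 (25.2%), against 21.7% and 19.3% of all peaks. With a window of 500 bp the boundary shares were 7.21% and 8.63%, and with 2.5 kb they were 34.4% and 39.6%. Over all peaks the corresponding shares were 13.96% and 14.8%, then 38.2% and 40.2%.

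The difference lay mainly at gene starts. A summit within 1 kb of a gene start was found for 53 wide Cre peaks (12.3%) and 71 wide GFP peaks (15.7%), against 19.8% and 21% of all peaks. Summits near a gene end alone numbered 3 (0.698%) and 7 (1.55%), against 1.77% of all peaks in both lists. A further 18 (4.19%) and 19 (4.20%) were at genes for which no strand was listed, against 3.94% and 4.06% of all peaks. The gap between wide and narrower peaks grew with the height of the peak. At 20 to 29 fragments, 16.1% of wide Cre peaks (10.1 to 23.8) and 41.9% of narrower ones (37.6 to 46.3) were at a start, and in the GFP list 17.99% (11.99 to 25.4) and 43.3% (38.9 to 47.9). At 30 or more fragments, 2 of 9 wide Cre peaks were at a start, against 82 of 101 narrower ones (81.2%), and 3 of 15 wide GFP peaks, against 82 of 106 (77.4%). At 10 to 14 fragments 12 of 100 wide and 17.6% of narrower Cre peaks were at a start, and 14.1% and 19.3% of GFP peaks. This breakdown by height was chosen after values were seen.

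**Figure D2:**
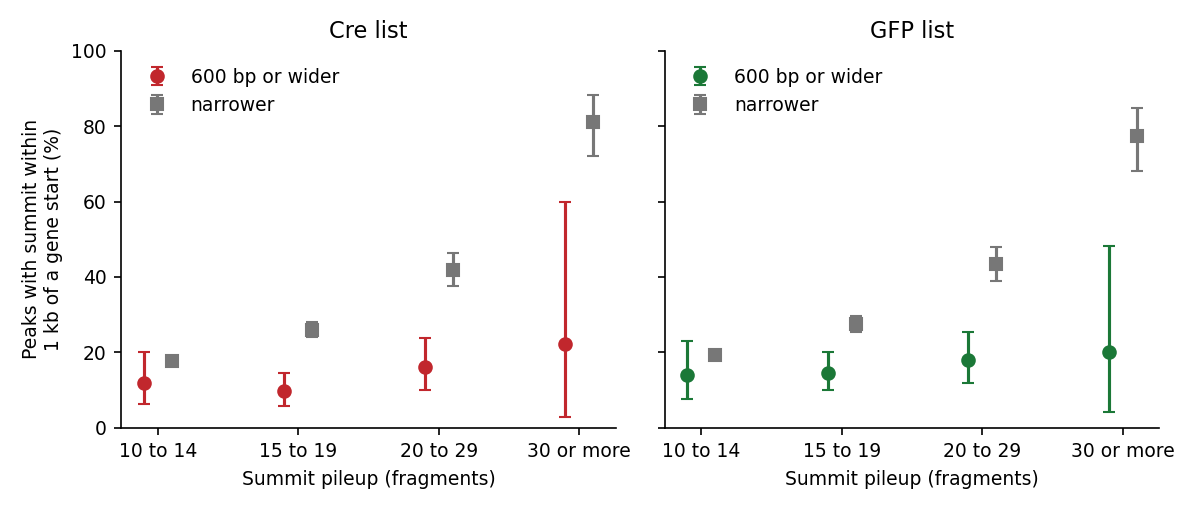
Share of peaks, in percent, whose summit lay within 1 kb of a protein-coding gene start, by summit pileup in fragments, for wide peaks (circles) and narrower peaks (squares) of each list. Bars are exact Clopper-Pearson 95% intervals, and wide peaks of 20 to 29 fragments sit at 16.1% and 17.99%, below narrower peaks at 41.9% and 43.3%.

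Around a start, wide peaks had their summits beside it and seldom on it. Of the 120 wide Cre and 142 wide GFP peaks with a summit within 2 kb of a start, 6 (5.0%, 1.86 to 10.6) and 10 (7.04%, 3.43 to 12.6) lay within 250 bp of it. Among narrower peaks within 2 kb the shares were 21.2% and 19.4%. The downstream side held 79 of 120 (65.8%, 56.6 to 74.2) and 84 of 142 (59.2%, 50.6 to 67.3), against 60.1% and 57.6% of narrower peaks, a difference within the intervals. Downstream summits were at a median of 920 bp (Cre) and 839.5 bp (GFP) from the start, against 709 and 722 bp for narrower peaks. A longer peak has more bases on which its summit can fall, and how much of this spread goes with width was not tested.

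**Figure D3:**
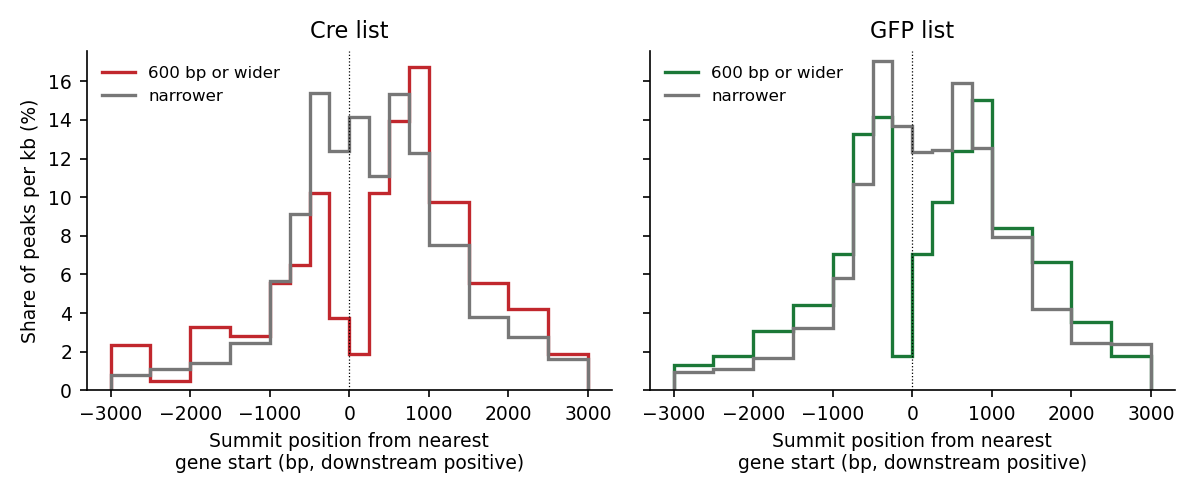
Position of summits relative to the nearest protein-coding gene start, in bp with downstream positive, as the share of all peaks of a class per kb of sequence, for wide peaks (coloured line) and narrower peaks (grey line) of each list. Wide summits are sparse in the bins next to the start, where 6 Cre and 10 GFP peaks lay within 250 bp, and dense around 1 kb downstream.

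Host genes were long, and wide peaks had company. The genes that held an interior wide summit had a median length of 99067 bp (Cre) and 96527 bp (GFP), against 85306.5 and 82992 bp for narrower interior peaks. Of those with a listed strand, 65.8% and 69.0% had the summit in the first 50% of the gene, against 64.8% and 65.8%. Another peak of the same list lay within 5 kb of 93.0% and 92.04% of wide peaks, with a median of 4 neighbours in both lists, against 71.6% and 73.1% of narrower peaks, with medians of 1 and 2. Wide peaks were thus mostly members of clusters of peaks. Aopep, an aminopeptidase gene with 9 wide Cre and 6 wide GFP peaks, is such a cluster: 5 of its wide Cre peaks lay between positions 63240468 and 63248573 of chromosome 13.

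Nearly all wide peaks were met by acetylation in the other culture. A peak of the other list overlapped 388 of 430 wide Cre peaks (90.2%, 87.0 to 92.9) and 412 of 452 wide GFP peaks (91.2%, 88.1 to 93.6), where 40.7% and 41.4% of all peaks did. A longer peak has more bases on which an overlap can fall, so the summit base, which has no width, was set beside it. The summit lay inside a peak of the other list for 70.7% of wide Cre and 71.0% of wide GFP peaks, against 31.9% and 32.4% of all. Set against narrower peaks of equal height, the gap depended on the height. At 10 to 14 fragments it was 51.0% against 24.8% of narrower peaks (Cre) and 63.0% against 26.4% (GFP), and at 15 to 19 it was 66.5% against 53.4% and 65.5% against 53.0%. At 20 to 29 fragments the shares were 91.9% against 79.8% (Cre) and 82.0% against 79.9% (GFP). At 30 or more fragments the counts were 8 of 9 (51.8 to 99.7%) against 101 of 101 (Cre) and 14 of 15 (68.1 to 99.8%) against 104 of 106 (GFP). Wide peaks of that height are too few to order the classes. The other list covered 61.2% of the bases of wide Cre peaks and 60.9% of those of wide GFP peaks.

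Being wide was shared less often than being acetylated. Only 151 wide Cre peaks (35.1%, 30.6 to 39.8) and 152 wide GFP peaks (33.6%) overlapped a peak that was itself wide in the other list, where 4.78% and 4.45% of all peaks did. Joining wide peaks of either list where they overlapped gave 721 separate stretches, of which 142 (19.7%) were wide in both lists. Narrower peaks that touched a stretch were counted in it but did not extend it. In 65 of these 142, 1 Cre peak met 1 GFP peak. The 142 stretches were alike in height, with the Cre summit higher in 65, the GFP summit higher in 66 and both equal in 11, and a median pileup of 20 in each list. Peaks of the GFP list covered more of the stretch in 84 and those of the Cre list in 58, 171979 against 162381 bp in sum.

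The other list often had several peaks under a wide peak, with or without a wide one among them. A wide Cre peak lay over 2 or more GFP peaks in 159 cases (37.0%, 32.4 to 41.7) and a wide GFP peak over 2 or more Cre peaks in 195 (43.1%, 38.5 to 47.9), against 3.03% and 3.19% of all peaks. Room for several peaks follows from the width that chose these members, so this contrast is largely fixed by the choice and is given as a description. In 106 and 132 of these every piece was narrower than 600 bp. A single narrower peak lay under 131 wide Cre and 128 wide GFP peaks, and a single wide one under 98 and 89. The most pieces were 4 under a Cre peak, in 5 cases, and 5 under a GFP peak, in Dnm3.

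**Figure D4:**
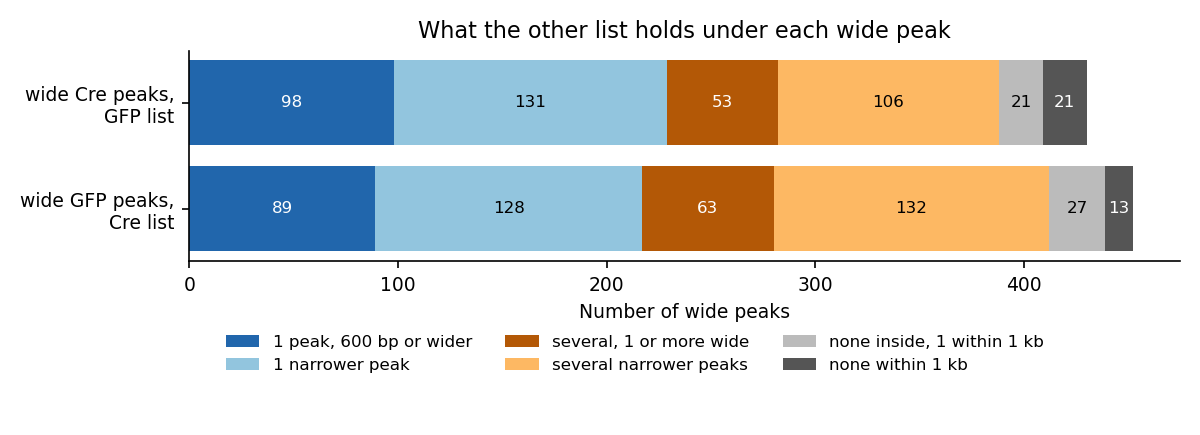
Number of wide peaks of each list by what the other list held under them, as stacked bars that sum to 430 (Cre) and 452 (GFP). Several narrower peaks lay under 106 wide Cre and 132 wide GFP peaks, and no peak of the other list came within 1 kb of 21 and 13.

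The breaks were short. Under divided wide Cre peaks there were 195 gaps between GFP pieces, with a median of 114 bp (52 to 594), and 144 of them (73.8%) were under 200 bp. Under divided wide GFP peaks there were 229 gaps between Cre pieces, with a median of 121 bp (52 to 1049), of which 170 (74.2%) were under 200 bp. Pieces had a median of 299.5 and 295 bp, and gaps made up 20.5% and 20.1% of the bases. When peaks of the other list within 200 bp of each other were merged first, 11.2% of wide Cre and 12.2% of wide GFP peaks remained over 2 or more. The undivided list had the higher summit in 82 of 159 Cre cases (lower in 63) and in 105 of 195 GFP cases (lower in 70). Division thus also occurred where the divided library was the taller one.

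The stretch with most pieces was in Dnm3, a dynamin gene whose opposite strand carries the transcript of Mir199a-2 and Mir214. Its single GFP peak (chr1:162217708-162220444, 29 fragments) lay over Cre peaks of 173, 818, 309, 147 and 419 bp, whose gaps were 63, 225, 55 and 493 bp. In Ippk, a gene of inositol phosphate metabolism, a GFP peak of 2490 bp lay over Cre peaks of 342, 932, 167 and 359 bp, and both lists reached 21 fragments. In Aff3 a GFP peak of 2201 bp lay over 3 Cre peaks with a gap of 1049 bp, the longest of all. The reverse was seen in Aopep, where a Cre peak of 1262 bp with 18 fragments lay over 4 GFP peaks of 158, 144, 329 and 188 bp, none above 12 fragments. Ankrd28 showed both at once, with a Cre peak of 1356 bp over 4 GFP peaks that included one of 1737 bp.

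Wide peaks with no overlapping peak in the other list numbered 42 (Cre) and 40 (GFP). No other peak came within 1 kb of 21 (4.88%) and 13, against 35.2% and 32.6% of all peaks. The Cre peaks of highest fold without overlap were at P4hb, a subunit of collagen prolyl hydroxylase (603 bp, 22 fragments), in Sod2, the mitochondrial superoxide dismutase (896 bp, 19 fragments), in Rora, a nuclear receptor (606 bp, 19 fragments), in Ppm1h, a phosphatase (1372 bp, 19 fragments), and near Gm34114 (637 bp, 18 fragments). At P4hb the Cre peak ended at base 120574081 of chromosome 11 and a GFP peak of 579 bp with 19 fragments began at base 120574122, so the absence there is one of overlap only. In the GFP list they were 18011 bp from Gm4577 (956 bp, 21 fragments), near Srp19 (622 bp, 20 fragments), in Ccdc80 (846 bp, 18 fragments), 1392 bp from Atn1 (646 bp, 17 fragments) and in Il16 (732 bp, 17 fragments). A peak of this height missing from 1 list has no replicate check.

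At the level of genes, 422 of 21887 protein-coding genes (1.93%) had a wide peak inside or within 1 kb, 108 in both lists, 145 in the Cre list alone and 169 in the GFP list alone. They made up 7.48% of the 5641 genes with any peak. Their median length was 36811 bp, against 26386 bp for genes with any peak, so long genes were more often among them. "Alone" refers to width here and in what follows: 136 of the 145 and 161 of the 169 had narrower peaks in the other list.

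Markers of the labelled cell type carried peaks. All 13 chondrocyte markers had a peak and 10 had a wide one, leaving Comp, Matn1 and Sox9 with narrower peaks only. The markers, which include Trps1 and Wwp2, were chosen with earlier results of these data known, so these counts are a description. Of other cell types, no marker of macrophages and blood (6 genes), endothelium (5), fat (4) or skeletal muscle (4) had any peak. Of 7 osteoblast markers 1 had a peak, and of 7 fibroblast markers 3 did, Dcn with a wide one. Hdac3 itself had no peak within 1 kb in either list, and acetylation peaks do not measure its deletion.

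Of the 13 functional lists, cartilage matrix had the largest share of genes with a wide peak, 14 of 25, with 6 in both lists, 2 in the Cre list alone and 6 in the GFP list alone. Wide peaks were 14 of 153 Cre peaks (9.15%) and 22 of 179 GFP peaks (12.3%) at these genes, against 3.06% and 3.22% at all protein-coding genes. Col2a1, the type II collagen of cartilage, had a GFP peak of 898 bp with 20 fragments (chr15:98003556-98004453) over a Cre peak of 384 bp with 14. Fmod, encoding fibromodulin, had 3 wide GFP peaks, the widest of 834 bp with 23 fragments over Cre peaks of 163 and 231 bp. Matn3, a matrilin gene, had a GFP peak of 763 bp with no Cre peak over it, and Hapln1, the link protein of aggrecan, one of 959 bp over Cre peaks of 547 and 268 bp. In the other direction Col9a2 had a Cre peak of 648 bp over a GFP peak of 575 bp, and Hspg2, encoding perlecan, one of 628 bp over GFP peaks of 144 and 161 bp. Acan, encoding aggrecan, was wide in both, with a Cre peak of 1554 bp and a GFP peak of 1187 bp. Col11a1, a minor fibrillar collagen gene, held 6 wide Cre and 5 wide GFP peaks.

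Of chondrocyte transcription factors and their partners, 11 of 28 had a wide peak, 8 in both lists, 1 in the Cre list alone and 2 in the GFP list alone. These are long genes, with a median of 134126 bp over the list. Runx1 was the gene of the Cre list alone, with a peak of 934 bp and 18 fragments over a GFP peak of 236 bp with 10. Nfia and Nfib, nuclear factor I genes, were wide in the GFP list alone (626 and 644 bp), while their relative Nfix had 4 wide Cre and 2 wide GFP peaks. Zbtb20, a zinc finger regulator of hypertrophic chondrocytes, had 2 and 4.

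Genes of glycolysis and the response to low oxygen had wide peaks in 7 of 16, of which Eno1 and Pkm were wide in both lists, 5 in the Cre list alone and none in the GFP list alone. Wide peaks were 8 of 58 Cre peaks (13.8%) and 2 of 42 GFP peaks (4.76%) at these genes, against 3.06% and 3.22% at all protein-coding genes. These are few peaks from 1 library each, and the difference between the lists was not tested. Pkm, the pyruvate kinase gene, had a Cre peak of 1632 bp with 23 fragments over GFP peaks of 285, 217 and 727 bp, the tallest with 21 fragments. Eno1, an enolase gene, had a Cre peak of 1289 bp with 26 fragments over GFP peaks of 269 and 452 bp with 14 and 17. Ldha, of lactate production, had a Cre peak of 672 bp with 20 fragments over a GFP peak of 473 bp with 15. Gapdh had one of 616 bp with 22 fragments over a GFP peak of 153 bp with 13. Aldoa, an aldolase gene, had one of 680 bp with 11 fragments and no GFP peak over it. Pfkp, a phosphofructokinase gene, had one of 760 bp with 15 fragments over GFP peaks of 144 and 172 bp with 15 and 19, so the taller library there was the divided one. P4ha1, a collagen prolyl hydroxylase that responds to oxygen, had one of 631 bp over GFP peaks of 162 and 150 bp. The same gene is counted again in the collagen processing list.

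Collagen processing and the secretory pathway had 6 of 24, with 1 in both, 4 in the Cre list alone and 1 in the GFP list alone. Plod2, a collagen lysyl hydroxylase, was the one wide in both. The Cre peak at Sec31a, of the vesicle coat, had 827 bp and 26 fragments over a GFP peak of 455 bp with 34, and that at P3h1, a prolyl 3-hydroxylase, had 705 bp and 18 fragments over a GFP peak of 410 bp with 22. In both the narrower GFP peak was the taller. Hspa5, the chaperone of the endoplasmic reticulum, had a GFP peak of 663 bp over Cre peaks of 305 and 166 bp.

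Enzymes of proteoglycan sugar chains had 5 of 18. Xylt1, which starts the chains, had 5 wide Cre and 3 wide GFP peaks. Chsy1, a chondroitin synthase, had a Cre peak of 1050 bp with 14 fragments over GFP peaks of 329 and 440 bp. Papss2, which makes the sulfate donor, had 3 wide GFP peaks and no wide Cre peak among 20. Has2, the hyaluronan synthase gene, had 1 in each, of 780 bp (Cre) and 1076 bp (GFP).

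The remaining lists had lower shares than those above, most of them still over the 1.93% of all protein-coding genes. Actin and adhesion genes had 3 of 23 (13.0%, Actn4, Myh9 and Lasp1), growth factor signalling 2 of 32 (6.25%, Bmpr1a and Fgfrl1) and AP-1 and immediate-early genes 2 of 23 (8.70%). Of the last, Klf6 was wide in both lists and Fosl2 had a Cre peak of 1035 bp with 18 fragments over GFP peaks of 156 and 306 bp. Cytosolic ribosome genes had 4 of 23 (17.4%), splicing genes 3 of 20 and ubiquitin and heat shock genes 3 of 20. Among genes of a list with any peak, the shares of these 6 lists ran from 9.52% (signalling) to 20% (ubiquitin and heat shock), against 7.48% of all genes with a peak. Deacetylases, acetyltransferases and acetyl-lysine readers had 1 of 24 (4.17%, and 6.67% of those with a peak), Brd2, whose Cre peak of 717 bp with 22 fragments lay over GFP peaks of 435 and 282 bp with 13 and 12. The 10 core histone genes had none, although 4 of them had a narrower peak.

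**Figure D5:**
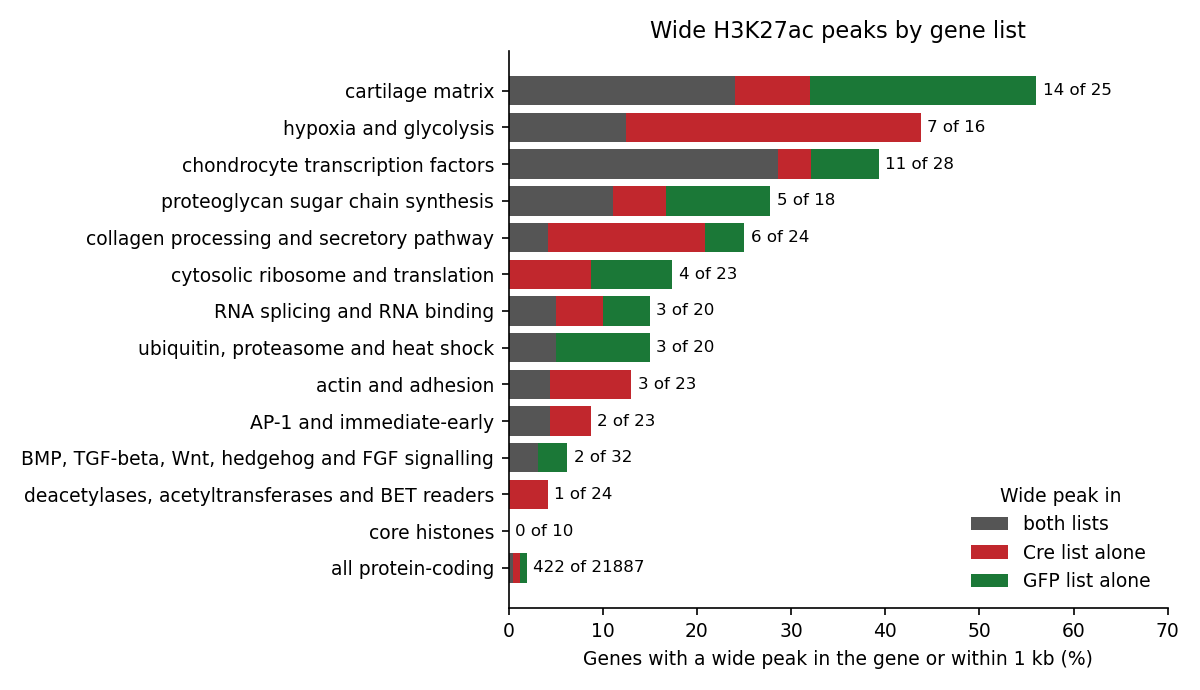
Share of the genes of each list, in percent, with a wide peak inside the gene or within 1 kb, split into genes wide in both lists, in the Cre list alone and in the GFP list alone, with all protein-coding genes at the bottom. Cartilage matrix stands at 14 of 25, and the 7 of 16 in hypoxia and glycolysis hold 5 genes of the Cre list alone and none of the GFP list alone. Over all protein-coding genes 145 were of the Cre list alone and 169 of the GFP list alone, and no contrast was tested.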

How the data were processed

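H3K27ac was measured by chromatin immunoprecipitation sequencing in 1 library per culture. Build mm10, BWA, Picard, SICER and bcl2fastq 1.8.4 are listed by the submitters' processing notes. The deposited lists have the MACS2 name and column order, but the sources used here do not give its version, settings or control. In the deposited lists the authors gave each peak a position, a score, a fold enrichment, −log10 p and −log10 q-values and a summit offset. The deposited score equalled 10 times the −log10 q-value, cut to an integer, in 100% of rows.

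Summit pileup was solved from fold and −log10 p under a Poisson tail, and came out whole within 0.001 at 100% of peaks. The sources used here do not give total reads. Positions are 1-based mm10, and genes, starts and sequences came from RefSeq GRCm38.p6, which shares those coordinates. Of 21887 protein-coding genes, 17492 had a listed start. A boundary peak has its summit within 1 kb of either gene end, otherwise it is interior or intergenic. Peaks overlapped at 1 bp.

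Named were the 10 widest peaks per list, up to 15 longest stretches wide in both, the 5 tallest of the most divided peaks and the 5 of highest fold without overlap per list, 3 peaks on each side of the limit, and list members with a wide peak. The members, lists and rules were chosen with earlier results of these data known. The microRNA window, the printed promoters and the breakdown by pileup were chosen after values were seen. Intervals are exact Clopper-Pearson at 95% and cover counting error only, since fragments and neighbouring peaks are not independent. No p-value was computed. Width, overlap, merging, q-value and gene-window alternatives were tried. Python 3.11.15, pandas 2.3.3, numpy 2.4.6, scipy 1.17.1 and matplotlib 3.10.9 were used, tested on simulated data.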

Additional observations from a re-analysis of the deposited data

How the results depend on the processing

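Values are Cre then GFP. Overlap with the other list (90.2% and 91.2%) was 95.1% and 97.1% within 1 kb, 40.9% and 41.8% over at least 50% of both peaks, 84.3% and 85.5% from 500 bp, 97.1% and 96.9% from 800 bp, and 80.9% and 83.8% with other peaks of −log10 q of at least 5. With the summit inside a peak of the other list, an alternative chosen after seeing the data, it was 70.7% and 71.0%. Division into 2 or more (37.0% and 43.1%) was 27.2% and 30.1% by summits, 11.2% and 12.2% after merging within 200 bp, 28.3% and 31.5% from 500 bp, 50.9% and 58.9% from 800 bp, and 25.6% and 31.4% at −log10 q of at least 5. Boundary shares (17.2% and 21.5%) were 7.21% and 8.63% within 500 bp, 34.4% and 39.6% within 2.5 kb, 3.95% and 4.42% with a gene end inside the peak, 23.3% and 28.8% over all genes, 21.0% and 22.6% from 500 bp, and 11.6% and 20.9% from 800 bp, a lower Cre share and a GFP share close to its main value. Over all peaks of each list, a gene end lay inside 1.52% and 1.74%. At −log10 q of at least 10, 228 and 267 wide peaks were left. The cause of these shifts was not tested, beyond what each definition removes or adds. Without X and Y, 427 and 450 wide peaks remained. No paired analysis was possible because each group had 1 library and no replicate number, and leaving out a library leaves no group. Pileups of 10 to 20 fragments limit what a single missing or divided peak can show.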

Other observations

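Wide peaks were spread unevenly over the chromosomes. Chromosome 15, which carries Trps1, the 2 intergenic stretches and Col2a1, had 29 wide of 661 Cre peaks (4.39%) and 37 of 634 GFP peaks (5.84%). Chromosome 3, with Col11a1, Mbnl1 and Tbx15, had 40 of 858 (4.66%) and 43 of 852 (5.05%). Chromosome 17 had 8 of 472 (1.69%) and 8 of 478 (1.67%). Mbnl1, a splicing regulator, held 4 wide peaks in each list, and Tbx15, a T-box factor of skeletal development, held 3 in the Cre and 4 in the GFP list. Sparc, a collagen-binding matrix protein outside the lists examined, held 3 in each. These genes were picked after their values were seen.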
